A study of Mus musculus with 14 samples.

Results

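The genes described here are 9 genes that mark the granules and the surface of the mouse eosinophil: Prg2, Prg3, Epx, Ear1, Ear2, Ear6, Ear10, Siglecf and Ccr3. They were chosen by symbol and are 9 of the 55367 gene symbols counted in each of 2 RNA-seq experiments. Eosinophils are granulocytes that arise in the bone marrow from myeloid progenitors and store toxic cationic proteins in large secretory granules. Major basic protein (Prg2) and its homolog (Prg3) form the core of the granule, and eosinophil peroxidase (Epx) and the eosinophil-associated ribonucleases (the Ear genes) fill the matrix around it. On the surface, Siglec-F is a sialic acid-binding lectin that dampens the cell, and CCR3 is the receptor for the eotaxin chemokines that draw eosinophils into tissues. The surface genes do not belong to eosinophils alone: mouse alveolar macrophages carry Siglec-F, and basophils and mast cells carry CCR3. Bulk RNA does not show which cells made any of the 9 genes, those of the granule included.

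All cells were mouse bone marrow cells of wild-type genotype depleted of mature lineages (Lin-), a mixture rich in progenitors, grown with the cytokines SCF, IL6 and IL3; the labels do not give the age, strain or number of mice. In the first experiment, cells were infected with a pSMAL lentivirus carrying luciferase (LUC, 3 libraries) or SETBP1D868N (SETBP1-D868N, 3 libraries), a leukaemia-associated mutant of the nuclear protein SETBP1. In the second, every culture carried SETBP1D868N and was kept for 4 days with the solvent DMSO (4 libraries) or with 2.5 µM PF-9363 (4 libraries), an inhibitor of MYST histone acetyltransferases. The labels name no change to the endogenous Setbp1 gene, and the second experiment had no group without the mutant. Libraries were made from 500 ng of RNA in the first experiment and 100 ng in the second, with a kit in the first and by a sequencing company in the second, so the experiments were not tested against each other. The labels do not say that replicates came from separate mice or cultures, so p-values measure the spread between these libraries, which may be technical.

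Depth ran from 60147266 to 68730322 counts per library in LUC and SETBP1-D868N and from 7083731 to 10359093 in DMSO and PF-9363. Levels are given as CPM, counts scaled to a common library size. A count of 0 allows a level of up to 0.0436 to 0.0499 CPM in the deeper libraries and 0.29 to 0.424 CPM in the others, counting error only. Of 15794 genes tested in the first experiment, 47.2% were called at an adjusted p under 0.05 with edgeR's quasi-likelihood test, 24.5% higher and 22.7% lower with SETBP1-D868N. Of 13456 tested in the second, 76% were called, 36.6% higher and 39.4% lower with PF-9363. Scaling by library size alone moved the median log2 fold change of all genes in the second experiment from -0.0379 to -0.268, and the share of called genes that were higher from 48.1% to 36.2%. In the first experiment that share moved from 51.9% to 62.1%. Each direction given below for the 9 genes was the same under that scaling.

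The Ear genes are near-copies of one another, which bears on how well reads can be told apart. Ear1, Ear2 and Ear10 lie in the region chr14:43818765-44103534 and Ear6 at chr14:51853699-51854643 (GENCODE M21, GRCm38). Their transcripts matched over 96.8% of aligned bases for Ear1 and Ear2, 89.2% for Ear2 and Ear6 and 88.8% for Ear1 and Ear6. Of all 50-base windows of the Ear1 transcript, 57.4% occurred also in another annotated transcript, against 41.5% for Ear2, 39.9% for Ear10 and 1.36% for Ear6. Counts of Ear1, Ear2 and Ear10 are therefore uncertain as single genes, and the sum of these 3 is given with the results. Ear1 also overlaps 4 annotated genes, 2 of them pseudogenes on its own strand, and Ear2 overlaps 1 noncoding gene on the opposite strand, while the strand handling of the counts is not given. Prg2, Prg3, Epx and Ccr3 shared 0 such windows with any other gene, and Siglecf 0.244%.

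The likeness extends upstream of the genes. Over the 250 bases before the start, Ear1 and Ear2 matched at 99.2% of aligned bases and Ear2 and Ear6 at 93%. The starts are those of RefSeq and differ from GENCODE M21 for Ear1, Ear6 and Ear10. The 250 bases of Ear1 (chr14:43819640-43819889) lie inside the gene as GENCODE places it (chr14:43818765-43875517). Those of Ear6 (chr14:51853518-51853767) run into the GENCODE gene. The stretch printed here is shown because it holds a motif that Ear6 lacks and the other Ear genes have (RefSeq, GRCm38.p6, 31 bases each, on the strand of the gene), with capitals marking TTGCNNAA, a motif of the C/EBP factors that drive granulocyte genes.
Ear1, chr14:43819707-43819737, minus strand: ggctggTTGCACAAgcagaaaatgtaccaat
Ear2, chr14:44102558-44102588, plus strand: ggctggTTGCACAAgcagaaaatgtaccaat
Ear10, chr14:43923666-43923696, minus strand: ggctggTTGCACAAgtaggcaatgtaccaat
Ear6, chr14:51853650-51853680, plus strand: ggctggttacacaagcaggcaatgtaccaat
Counted from the 5′ end of the stretch, Ear6 differed from Ear2 by G9A, A19G and A20C, and the first of these lies inside the motif. Ear10 differed from Ear2 by C16T, A19G and A20C, outside it. The motif, searched on both strands, occurred in the 250 bases before the start of 9.56% of 32851 mouse promoters and in 3 of the 8 members with an entry, which are Ear1, Ear2 and Ear10. Those 3 matched one another at 93.9% to 99.2% of aligned bases there, so they are not separate occurrences to set against that share.

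The GATA motif, bound by the GATA1 and GATA2 factors of the eosinophil, basophil and mast cell lineages, was searched as GATAA and its reverse TTATC. It occurred in 22.6% of the 32851 promoters and in 2 of the 8 members, Prg3 and Ccr3. Prg3 and Ccr3 are printed because they moved in opposite directions with PF-9363 and both hold the motif, which is in capitals over the 250 bases before each start.
Prg3, chr2:84987965-84988214, plus strand: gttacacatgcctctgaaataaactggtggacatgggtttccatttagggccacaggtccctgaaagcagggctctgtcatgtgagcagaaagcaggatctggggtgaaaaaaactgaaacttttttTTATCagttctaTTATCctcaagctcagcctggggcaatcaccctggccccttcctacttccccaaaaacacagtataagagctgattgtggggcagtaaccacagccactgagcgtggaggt
Ccr3, chr9:124021721-124021970, plus strand: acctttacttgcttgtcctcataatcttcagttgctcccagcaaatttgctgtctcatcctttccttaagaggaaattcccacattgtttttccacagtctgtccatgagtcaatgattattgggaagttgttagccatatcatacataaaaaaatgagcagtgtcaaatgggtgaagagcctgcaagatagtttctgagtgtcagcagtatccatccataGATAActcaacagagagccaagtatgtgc
Prg3 held the motif in a pair whose first bases lie 12 bases apart, and Ccr3 held 1 match at 29 to 25 bases before the start. GGAAGT, a core of ETS factors such as PU.1, occurred in 19.7% of promoters and in Prg3, Ccr3, Siglecf and Ear10. These matches describe letters and not bound sites.

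In both experiments 8 of the 9 genes passed the filter on low counts and Ear10 did not. With SETBP1-D868N, 4 of the 8 (Ear1, Ear2, Ear6 and Siglecf) were lower, Ccr3 was higher, and Prg2, Prg3 and Epx were not called, against the 47.2% of all genes called. The median log2 fold change of the 8 genes was -0.38, against 0.0043 for all genes tested. With PF-9363, 7 of the 8 were lower and Ccr3 was higher, against 76% of all genes called, and the median was -1.76 against -0.038. With SETBP1-D868N the groups did not overlap for 6 of the 8 genes, 5 of them lower, against 56.7% of all genes tested without overlap and 27.3% lower without overlap. With PF-9363 they did not overlap for 8 of 8, 7 of them lower, against 70.3% and 36.3% of all genes tested. In these bulk libraries, fewer cells of a type and less RNA per cell cannot be told apart.

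**Figure D1:**
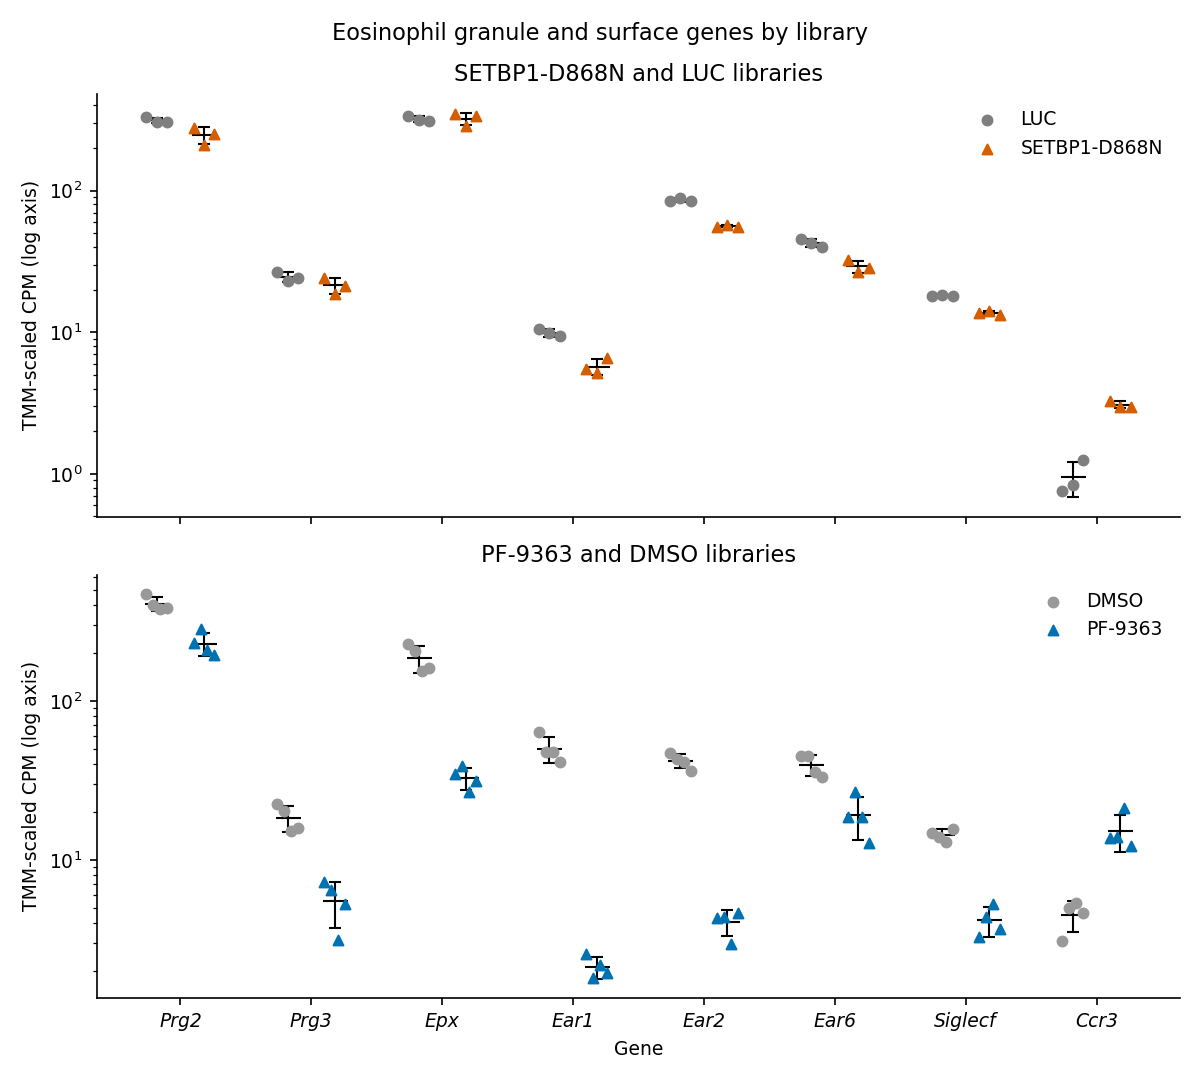
Level of 8 eosinophil genes in each library, in TMM-scaled CPM, on a log axis, for the first experiment (upper panel) and the second (lower panel). Points are libraries, and bars are the mean and SD of 3 or 4 libraries. In the lower panel the PF-9363 libraries lie below the DMSO libraries for every gene apart from Ccr3, which lies above them.

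Prg2 encodes the major basic protein, the toxic crystal core of the granule. It read 329, 305 and 307 CPM in LUC libraries 1 to 3 and 278, 211 and 250 CPM in the SETBP1-D868N libraries. All 3 mutant libraries lay below all 3 controls, but they were spread from 211 to 278, and the fold change of -0.35 (log2, SE 0.115) was not called with edgeR's quasi-likelihood test (adjusted p = 0.0675), though 5 of 14 other settings called it. In the second experiment Prg2 read 470, 403, 379 and 385 CPM in DMSO and 232, 281, 208 and 195 CPM with PF-9363. Every treated library was below every control, from 409 ± 41.8 CPM (SD, n = 4) to 229 ± 37.9 (n = 4), a 1.79-fold drop (log2 fold change -0.84, SE 0.112, edgeR adjusted p = 3.55e-05). Prg2 lies at chr2:84980461-84983632, next to Prg3.

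Prg3 encodes a homolog of major basic protein, from the neighbouring gene at chr2:84988215-84993886. Its level was 26.7, 23.0 and 24.0 CPM in LUC and 24.3, 18.7 and 21.1 CPM in SETBP1-D868N. The groups overlapped, and the log2 fold change of -0.20 (SE 0.103) was not called (edgeR adjusted p = 0.163), though 4 of 14 other settings called it. With DMSO it read 22.4, 20.3, 15.1 and 16.0 CPM, and with PF-9363 7.21, 6.45, 3.11 and 5.31 CPM. The treated libraries lay wholly below the controls, and the mean fell from 18.4 ± 3.49 to 5.52 ± 1.78 CPM (SD, n = 4 each), a 3.25-fold drop (log2 fold change -1.70, SE 0.187, edgeR adjusted p = 1.8e-08).

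Epx, the eosinophil peroxidase that makes hypobromous acid from hydrogen peroxide, lies at chr11:87864000-87875536 beside its paralogs Mpo and Lpo. LUC libraries read 339, 313 and 312 CPM and SETBP1-D868N libraries 345, 286 and 337 CPM. The groups overlapped, and the log2 fold change of 0.0071 had a 95% interval of -0.206 to 0.220 (edgeR adjusted p = 0.953), and its sign turned under 6 other settings, RLE scaling among them. In the second experiment the DMSO libraries read 228, 204, 153 and 160 CPM and the PF-9363 libraries 34.7, 38.9, 26.6 and 31.1 CPM. Here the groups stood far apart: Epx fell 5.64-fold, from 186 ± 35.7 to 32.8 ± 5.24 CPM (SD, n = 4 each; log2 fold change -2.50, SE 0.169, edgeR adjusted p = 1.55e-06).

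The eosinophil-associated ribonucleases degrade RNA and are the mouse relatives of the human eosinophil-derived neurotoxin and cationic protein. Ear1 read 10.6, 9.80 and 9.40 CPM in LUC and 5.47, 5.12 and 6.57 CPM in SETBP1-D868N. Every mutant library was below every control, a 1.74-fold difference (log2 fold change -0.80, SE 0.0923, edgeR adjusted p = 2.19e-05). In DMSO it read 63.6, 47.7, 47.4 and 41.5 CPM, and with PF-9363 2.58, 1.81, 2.18 and 1.95 CPM. This 23.2-fold drop was the largest among the 8 genes, and the treated values rest on 14 to 25 counts per library (log2 fold change -4.54, SE 0.167, edgeR adjusted p = 3.35e-19). Among all genes tested, that fold change stood at percentile 0.736.

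Ear2 read 84.1, 88.9 and 84.7 CPM in LUC and 55.5, 57.1 and 55.5 CPM in SETBP1-D868N. The libraries of each group lay within a few CPM of each other and the groups did not overlap, 1.53-fold lower with the mutant (log2 fold change -0.62, SE 0.0319, edgeR adjusted p = 4.83e-08). It read 47.2, 43.2, 41.4 and 36.4 CPM in DMSO and 4.33, 4.38, 2.96 and 4.66 CPM with PF-9363. Ear2 thus fell 10.1-fold, with no overlap (log2 fold change -3.34, SE 0.138, edgeR adjusted p = 1.29e-18).

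Ear6, whose transcript is distinct enough to be counted by itself, fell less than Ear1 and Ear2 with PF-9363. With SETBP1-D868N the ratios of Ear1 and Ear2 to Ear6 overlapped between the groups. LUC libraries read 45.2, 43.0 and 39.7 CPM and SETBP1-D868N libraries 32.3, 26.5 and 28.5 CPM. The groups did not overlap (log2 fold change -0.55, SE 0.0783, edgeR adjusted p = 0.000733). DMSO libraries read 44.8, 45.2, 35.8 and 33.0 CPM and PF-9363 libraries 18.6, 26.8, 18.7 and 12.7 CPM, again apart, a 2.08-fold drop (log2 fold change -1.06, SE 0.199, edgeR adjusted p = 0.000693). Ear10 had 3, 1 and 1 counts in LUC, 0, 5 and 4 in SETBP1-D868N, and 0 in all 8 libraries of the second experiment. It was thus near the floor in the first experiment and not detected in the second. How reads shared with other Ear genes were counted is not given. The counts of Ear1, Ear2 and Ear10, which share long stretches, were also summed to 1 value per library, a choice made after seeing the data. That sum was 94.8, 98.7 and 94.1 CPM in LUC and 61.0, 62.3 and 62.2 CPM in SETBP1-D868N, and 111, 90.9, 88.8 and 77.8 CPM in DMSO and 6.90, 6.19, 5.14 and 6.62 CPM with PF-9363. The groups did not overlap in either experiment, at -0.63 on the log2 scale with SETBP1-D868N (SE 0.0301, edgeR adjusted p = 2.69e-08) and -3.87 with PF-9363 (SE 0.121, edgeR adjusted p = 9.9e-21, 14.6-fold lower). With Ear6 added, whose 19.2 CPM exceeded the other 3 together with PF-9363, the shifts were -0.61 and -2.38. Reads shared with the pseudogenes Ear-ps2 and Ear-ps9, or not counted at all, are outside these sums.

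The surface genes went in opposite directions in both experiments. Siglecf, at chr7:43351341-43359531, read 18.0, 18.4 and 18.2 CPM in LUC and 13.6, 14.1 and 13.3 CPM in SETBP1-D868N, with no overlap (log2 fold change -0.41, SE 0.0467, edgeR adjusted p = 1.81e-05). In the second experiment it read 14.8, 14, 12.9 and 15.7 CPM in DMSO and 3.30, 4.38, 5.29 and 3.69 CPM with PF-9363. That was a 3.51-fold drop on 32 to 34 counts per treated library (log2 fold change -1.81, SE 0.169, edgeR adjusted p = 1.12e-10). Alveolar macrophages are a cell type that also carries Siglec-F, and their marker list summed to 21250 to 22420 CPM in LUC and 15220 to 16660 in SETBP1-D868N, and to 17550 to 20360 in DMSO and 24500 to 27580 with PF-9363. These sums are nearly all Chil3 (17440 to 20260 CPM in DMSO and 23940 to 27020 with PF-9363), a chitinase-like protein that neutrophil precursors also make. Of the 8 genes of that list, 6 were tested with SETBP1-D868N, where 0 were higher and 4 lower. With PF-9363, 5 were tested, of which 3 were higher and 0 lower. The marker Krt79 had 0 counts throughout. The shares higher and lower over all genes tested were 24.5% and 22.7% with SETBP1-D868N and 36.6% and 39.4% with PF-9363. The part of such cells in the fall of Siglecf was not tested.

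Ccr3, at chr9:124021972-124031689, was the 1 gene of the 9 that rose. It read 0.76, 0.83 and 1.25 CPM in LUC and 3.29, 2.97 and 2.98 CPM in SETBP1-D868N, from 51 to 74 counts in the controls and 194 to 216 in the mutant libraries. The groups did not overlap, and the 3.28-fold rise (log2 fold change 1.71, SE 0.17, edgeR adjusted p = 6.67e-06) stood at percentile 99.5 of all genes tested. In DMSO it read 3.07, 4.99, 5.34 and 4.63 CPM, and with PF-9363 13.7, 13.9, 21.2 and 12.3 CPM. Again the groups did not overlap, a 3.33-fold rise (log2 fold change 1.74, SE 0.190, edgeR adjusted p = 4e-09).

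Marker RNAs of other cell types changed as well, while the cells themselves were not counted. Over all genes tested, 24.5% were higher and 22.7% lower with SETBP1-D868N, and 36.6% higher and 39.4% lower with PF-9363. The marker counts here and in the next paragraph stand beside these shares. Markers of mast cells and basophils, which share Ccr3 with eosinophils, summed to 4878 to 5075 CPM in LUC and 5223 to 5385 in SETBP1-D868N, where 4 of 10 were higher and 6 lower. With PF-9363, 9 of 10 were higher and 0 lower, from 1143 to 1486 CPM in DMSO to 4654 to 5625, and none of the list was at 0. Cpa3, the mast cell carboxypeptidase, was 1.45-fold lower with SETBP1-D868N (edgeR adjusted p = 6.8e-07) and 6.38-fold higher with PF-9363 (edgeR adjusted p = 1.92e-17). Mcpt8, the basophil protease, rose 1.40-fold with SETBP1-D868N (edgeR adjusted p = 2.09e-08). It was the 1 gene of the list not called with PF-9363 (0.91-fold, edgeR adjusted p = 0.098). Prss34, another protease of the list, rose 2.00-fold with SETBP1-D868N (edgeR adjusted p = 1.63e-10) and 1.71-fold with PF-9363 (edgeR adjusted p = 1.27e-08). The part of these cells in the rise of Ccr3 was not tested.

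Macrophage markers summed to 861 to 896 CPM in LUC and 520 to 551 in SETBP1-D868N, where 7 of 7 were lower. With PF-9363, 7 of 7 were higher, from 411 to 507 CPM in DMSO to 3006 to 3623. Neutrophil markers, among them S100a9, Ngp, Ltf and S100a8, fell with SETBP1-D868N in 9 of 9 genes, from 22060 to 22900 CPM in LUC to 11990 to 14560. With PF-9363, 4 of 9 were higher and 1 lower, and the sums were 14450 to 17630 CPM in DMSO and 19250 to 20880 with PF-9363. Promyelocyte markers, among them Mpo, Elane and Ctsg, rose with SETBP1-D868N in 4 of 4 genes, from 4461 to 4761 CPM to 6096 to 6189. They fell with PF-9363 in 4 of 4 genes, from 5325 to 6354 CPM to 277 to 428. The part of these cell types in the changes of the eosinophil genes was not tested.

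**Figure D2:**
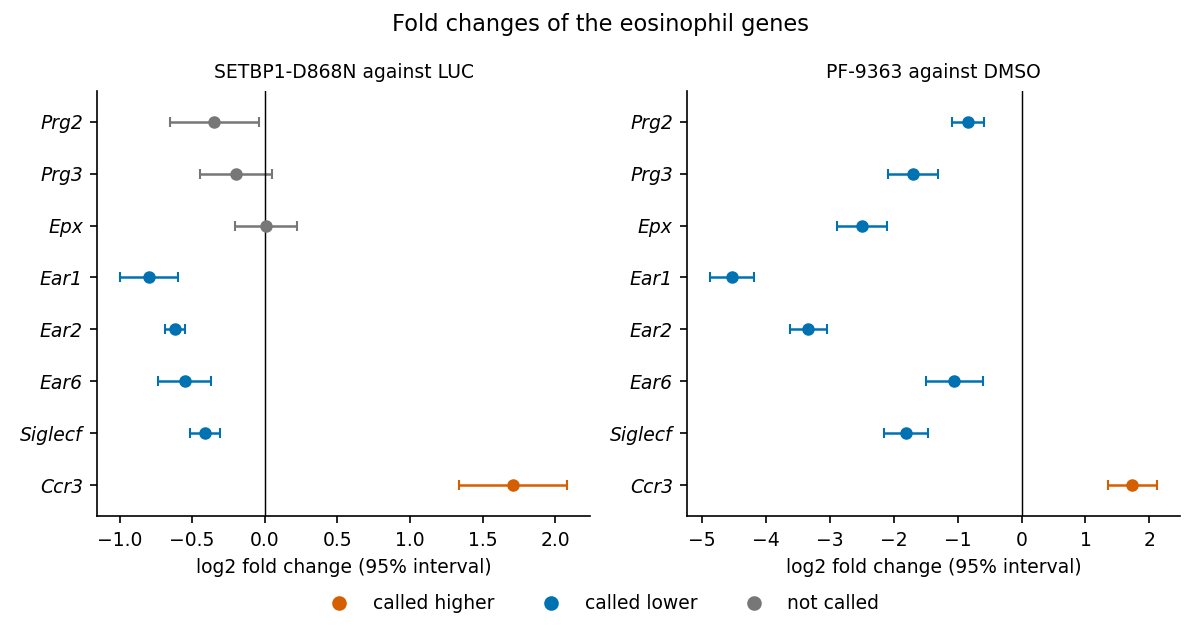
Log2 fold change of each eosinophil gene with its 95% interval from edgeR's quasi-likelihood fit, for SETBP1-D868N against LUC (left) and PF-9363 against DMSO (right); the horizontal scales differ. The PF-9363 values run from -4.54 for Ear1 to 1.74 for Ccr3, and all 8 intervals exclude 0.

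Per kilobase of exon, the order of the genes also changed. In LUC, Prg2 stood first at 374 ± 16.0 CPM per kb (SD, n = 3), followed by Ear2 at 119 ± 3.63 and Epx at 117 ± 5.54, whose libraries overlapped. Ear6 (45.1), Prg3 (25.9), Ear1 (13.6), Siglecf (6.51) and Ccr3 (0.289 CPM per kb) followed, each apart from its neighbours. In SETBP1-D868N the first were Prg2 at 294, Epx at 118 and Ear2 at 77.9 CPM per kb. There the libraries of Epx and Ear2 did not overlap.

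In DMSO, Prg2 stood at 488 ± 49.9 CPM per kb (SD, n = 4), and Ear1 (68.5), Epx (68.1) and Ear2 (58.5 CPM per kb) overlapped below it. With PF-9363, Prg2 remained first at 273 ± 45.2 CPM per kb, and Ear6 came next at 20.3, overlapping Epx at 12 CPM per kb. Prg3 (5.82), Ear2 (5.68) and Ccr3 (4.66 CPM per kb) overlapped, and Ear1 (2.91) and Siglecf (1.49) came last by their means. Ear1 thus went from a place beside Epx to one below Ccr3.

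Ratios between members of 1 library do not depend on its scaling, and they show that the genes did not fall by the same factor. The ratio of Prg3 to Epx counts was 0.0984 to 0.0997 in the 4 DMSO libraries and 0.117 to 0.208 with PF-9363. Prg2 to Epx went from between 1.97 and 2.48 to between 6.25 and 7.83, a shift of 1.65 on the log2 scale, and Prg2 to Prg3 shifted by 0.94. For these granule pairs every treated library had a higher ratio than every control, so Prg2 fell by the smallest factor and Epx by the largest. Ear1 to Ear2 went from between 1.10 and 1.35 to between 0.412 and 0.737 (log2 shift -1.17), Ear1 to Ear6 shifted by -3.47 and Ear2 to Ear6 by -2.30. Siglecf to Ccr3 went from between 2.42 and 4.81 to between 0.241 and 0.315 (log2 shift -3.56). None of these 7 ratios overlapped between DMSO and PF-9363. Each gave p = 0.0286 in a two-sided exact permutation test over the 8 libraries, the smallest p that 70 splits allow. Benjamini-Hochberg adjustment over the 7 pairs left this permutation p at 0.0286. The test was chosen after seeing the data, so its p adds nothing to the lack of overlap. Pairs that share a gene are not separate tests, and counts of Ear1 and Ear2 are uncertain as single genes.

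With SETBP1-D868N, Siglecf to Ccr3 had the largest shift of the 7 ratios. It was 14.6 to 23.7 in LUC and 4.13 to 4.74 in SETBP1-D868N (log2 shift -2.15). Prg2 to Epx went from between 0.972 and 0.986 to between 0.737 and 0.807, a shift of -0.36. Prg2 to Prg3 went from between 12.4 and 13.3 to between 11.3 and 11.9 (-0.15), and Prg3 to Epx from between 0.0735 and 0.0787 to between 0.0626 and 0.0705 (-0.21). These 4 ratios did not overlap between the groups, each lower with SETBP1-D868N. The 3 ratios among the Ear genes overlapped between LUC and SETBP1-D868N, with shifts of -0.19, -0.25 and -0.064. An exact permutation test of 3 libraries against 3 cannot go below p = 0.1, and the adjusted values over the 7 pairs were 0.175 to 0.7.

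The ratio of Ear1 to Ear2 also differed between the experiments. It was 0.110 to 0.126 in LUC and 0.0897 to 0.118 in SETBP1-D868N, but 1.10 to 1.35 in DMSO, although the SETBP1-D868N and DMSO cells carried the same lentivirus. The experiments differ in library preparation, depth and culture, and the share of reads common to both genes bears on this ratio.

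**Figure D3:**
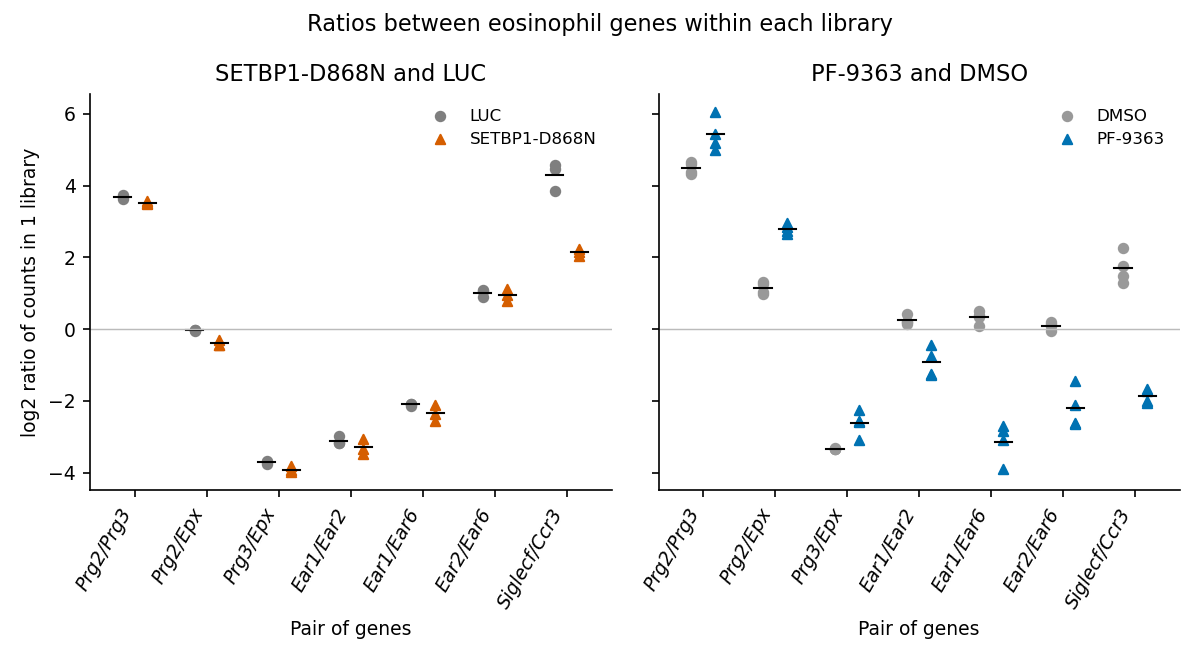
Log2 ratio of the counts of 2 eosinophil genes within each library (points) for 7 pairs, with the group mean as a bar, in the first experiment (left) and the second (right). On the right the DMSO and PF-9363 points do not overlap for any pair; Siglecf/Ccr3 goes from a mean of 1.70 to -1.86.

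The rest of the eosinophil programme was read from 20 genes of 3 kinds: receptors for the cytokines that drive eosinophils, transcription factors, and lipid enzymes and other receptors. With SETBP1-D868N, 4 of the 20 were higher, 12 lower and 4 not called, and the median was -0.24 on the log2 scale against 0.0043 for all genes tested. With PF-9363, 13 of 18 tested were higher, 3 lower and 2 not called, with a median of 1.22 against -0.038. Over all genes, 24.5% were higher and 22.7% lower with SETBP1-D868N, and 36.6% higher and 39.4% lower with PF-9363. The other 2, Il5ra and Ptgdr2, were too low to test in the second experiment. Il3ra, Cebpa, Ltc4s and Ptgdr2 each overlap a gene annotated on the opposite strand, so their counts are uncertain where strand was not used. Zfpm1 overlaps the gene Gm20388 on its own strand, which leaves its counts uncertain in either case. Most of those tested thus rose with PF-9363 while 7 of the 8 granule and surface genes fell. Several of the 20 genes are shared with mast cells, basophils or macrophages. Markers of mast cells and basophils (9 of 10) and of macrophages (7 of 7) were also called higher with PF-9363. The part of those cells in this contrast was not tested.

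Il5ra, the receptor subunit specific for the eosinophil growth factor IL5, was low throughout. It held 75 to 107 counts per library in LUC (1.47 ± 0.183 CPM, SD, n = 3) and 75 to 94 in SETBP1-D868N (1.28 ± 0.151 CPM), which was not called (edgeR adjusted p = 0.299). In the second experiment it held 2, 9, 10 and 3 counts in DMSO and 9, 0, 0 and 6 with PF-9363, at the limit of detection. Its partner, the beta common chain Csf2rb, went from 1541 to 1213 CPM with SETBP1-D868N (log2 fold change -0.34, edgeR adjusted p = 2.07e-06) and from 493 to 1670 CPM with PF-9363 (1.76, edgeR adjusted p = 8.49e-20). Csf2rb2, the IL3-specific copy of that chain, had log2 fold changes of -0.58 and 2.91, and Csf2ra, the GM-CSF receptor subunit, -0.16 and 0.99, all called. Il3ra was called higher in both, at 0.23 and 0.36, the latter call lost under scaling by library size alone (0.13, edgeR adjusted p = 0.291). All 4 receptor genes tested were thus higher with PF-9363, against 36.6% of all genes. With SETBP1-D868N 3 of 5 were lower, against 22.7% of all genes.

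Among the transcription factors, 3 of 9 were higher and 4 lower with SETBP1-D868N, and 5 were higher and 3 lower with PF-9363. Over all genes these shares were 24.5% and 22.7% with SETBP1-D868N and 36.6% and 39.4% with PF-9363. Gata1, which eosinophils need to form, was not called with SETBP1-D868N (43.5 and 44.9 CPM, log2 fold change 0.045; called at 0.094 under scaling by library size alone) and rose from 6.47 to 21.7 CPM with PF-9363 (1.74, SE 0.138, edgeR adjusted p = 3.12e-12). Gata2, shared with mast cells and basophils, rose in both, from 500.2 to 580 CPM and from 56.1 to 297 CPM, and the GATA cofactor Zfpm1 rose too, at 0.44 and 0.96 on the log2 scale. Cebpe, the C/EBP factor of late granule genes, fell in both, at -0.33 and -1.29 (edgeR adjusted p = 3.87e-06 and 0.000317). Cebpa, the early granulocyte factor, rose by 0.52 with SETBP1-D868N and fell by 0.52 with PF-9363.

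Spi1, which encodes PU.1, went the other way, at -0.27 and 0.67. Xbp1, a secretory factor that eosinophil precursors require, was not called with SETBP1-D868N (0.010) and fell with PF-9363 (-0.54, edgeR adjusted p = 1.72e-09). Id2 fell with SETBP1-D868N (-0.36) and was not called with PF-9363 (0.020, edgeR adjusted p = 0.832), though scaling by library size alone called it lower (-0.21, edgeR adjusted p = 0.0176). Trib1, a pseudokinase that acts on C/EBP proteins, had log2 fold changes of -0.19 (edgeR adjusted p = 0.0289, a call lost under 6 of the 14 other settings) and 1.87.

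The lipid enzymes and other receptors were, of these 3 kinds, the one with the largest share lower with SETBP1-D868N, with 5 of 6 lower, 0 higher and a median of -0.55 on the log2 scale. Over all genes, 22.7% were lower with SETBP1-D868N. Of those of this kind tested with PF-9363, 4 of 5 were higher and 0 lower, against 36.6% and 39.4% of all genes. Alox15, the 15-lipoxygenase of eosinophils and macrophages, went from 24.3 to 14.2 CPM with SETBP1-D868N (-0.77) and from 4.47 to 12.2 CPM with PF-9363 (1.44). Hrh4, the histamine receptor of eosinophils and mast cells, had log2 fold changes of -0.69 and 3.19, and Il1rl1, the IL33 receptor abundant on mast cells, -0.35 and 2.77. Ltc4s, leukotriene C4 synthase, was lower with SETBP1-D868N (-0.42) and not called with PF-9363 (-0.038), and Alox5 was not called with SETBP1-D868N (-0.039) and higher with PF-9363 (1.71). Ptgdr2, the prostaglandin D2 receptor, held 10 to 16 counts in LUC and 3 to 4 in SETBP1-D868N (log2 fold change -1.87, edgeR adjusted p = 0.00388). Several of these genes are shared with mast cells or macrophages, whose marker sums are given above, and the part of those cells was not tested.

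**Figure D4:**
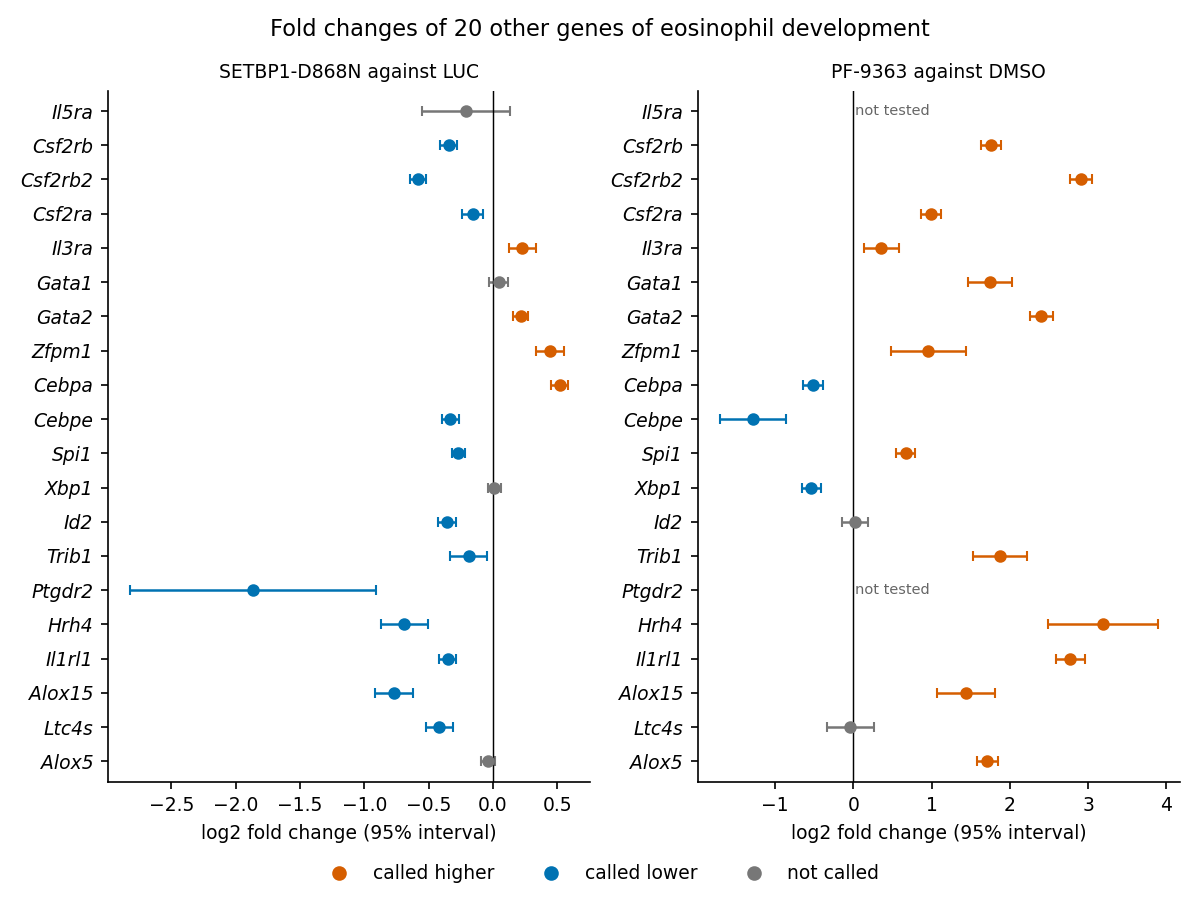
Log2 fold change with its 95% interval for 20 other genes of eosinophil development, SETBP1-D868N against LUC (left) and PF-9363 against DMSO (right); the horizontal scales differ and colours give the edgeR call. On the right, 13 genes were called higher, Cebpa, Cebpe and Xbp1 lower, and Il5ra and Ptgdr2 were not tested.

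Neighbours and relatives of the 9 genes, 15 in all, moved in both directions. Of 12 tested with SETBP1-D868N, 2 were higher and 7 lower, against 24.5% and 22.7% of all genes. Of 10 tested with PF-9363, 5 were higher and 4 lower, against 36.6% and 39.4% of all genes. Beside Epx, Mpo rose with SETBP1-D868N (log2 fold change 0.40) where Epx did not, and with PF-9363 it fell from 2320 ± 304 to 6.35 ± 4.04 CPM (SD, n = 4 each; -8.49, edgeR adjusted p = 4.05e-07) where Epx fell by 2.50. Of the ribonuclease relatives, Rnase2a, another eosinophil-type ribonuclease, fell as the Ear genes did, from 77.1 to 61.8 CPM (-0.32) and from 13.7 to 5.20 CPM (-1.40, edgeR adjusted p = 2.11e-08). Rnase6, by contrast, had log2 fold changes of -0.30 and 2.52, both called, and Ear14 had 0 counts in every library.

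Around Siglecf, Siglecg fell in both comparisons (-0.39 and -1.43), while Siglece (-0.37 and 1.69) and Cd33 (-0.60 and 1.04) fell with SETBP1-D868N and rose with PF-9363, all called. In the chemokine receptor cluster of Ccr3 on chromosome 9, Ccr1 (-0.25 and 1.68) fell with SETBP1-D868N, opposite to Ccr3, and rose with PF-9363, as Ccr3 did. Ccr2, the monocyte chemokine receptor, was not called with SETBP1-D868N (-0.032) and fell from 773 ± 44.7 to 134 ± 12.6 CPM with PF-9363 (-2.53, edgeR adjusted p = 1.27e-22). Ccr1l1 rose with SETBP1-D868N from 6 to 12 counts per library to 13 to 30 (log2 fold change 1.36, edgeR adjusted p = 0.0159), a call lost without LUC library 2 (0.0707), SETBP1-D868N library 2 (0.0675) or SETBP1-D868N library 3 (0.06).

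For each kind of member, the one with the highest mean CPM over all 14 libraries was taken (Prg2, Ear2 and Siglecf; within single groups another can be higher), and the genes of closest pattern were found by the Euclidean distance of log2(CPM + 0.5), centred within each experiment, among 12376 genes. For Prg2 they were Mppe1 (distance 0.505), Gnal (0.509) and Mblac2 (0.514). For Siglecf they were Rflnb (0.483), Trem3 (0.518), a myeloid receptor, and Rab11fip4 (0.54). Ear2 had no neighbour as near, with Wdr19 at 0.759, Mboat2 at 0.777 and Grhpr at 0.78. None of the other eosinophil genes was among the 3 nearest to Prg2, Ear2 or Siglecf.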

How the data were processed

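Polyadenylated RNA was sequenced in 14 libraries. Values are whole, unscaled counts for each of 55367 symbols, deposited as 1 table per experiment and called raw counts per the labels; 0 columns were left unmapped. STAR, DESeq2 and the builds GRCm38 and mm10 are named in the submitters' processing notes, without roles; the counting program, annotation, strand handling and duplicate removal are not given in the sources used here.

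Everything else was computed here with R 4.3.3. In each experiment, low genes were removed by filterByExpr (edgeR 4.0.16, minimum count 10, minimum total 15), and counts were scaled by TMM, printed as CPM and compared with edgeR's quasi-likelihood test (robust, group alone, Benjamini-Hochberg over all genes, called at 0.05). Standard errors are the absolute log2 fold change over the square root of F. Exon length and position came from GENCODE M21 (81 of 81 listed genes matched by symbol). Promoters came from RefSeq (GRCm38.p6, 8 of 9 genes matched; none for Prg2), with motifs searched on both strands of the 250 bases before the start. In simulated counts, 2-fold changes were recovered for 83.7% (15794 genes, SETBP1-D868N) and 84% (13456 genes, PF-9363) of changed genes, 96% and 96.8% at a mean count of at least 50, with 10.7% and 6.24% of calls false. Each simulation changed 200 genes, a far smaller share than the 47.2% and 76% called here. These rates therefore need not hold for the data.

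Alternatives were RLE and library-size scaling, other filters, DESeq2 1.42.0, limma-voom 3.58.1, no robust estimation, a replicate block and leaving out each library. Permutation tests of ratios and the sum of 3 Ear genes were chosen after seeing the data. The members and lists were chosen with earlier results of these data known. Named genes are the 9 members, any gene of the programme and neighbour lists, genes of a marker list among the 3 of highest mean CPM in an experiment, and the 3 nearest in pattern. The values of 1 gene of the neighbour list are not reported here.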

Additional observations from a re-analysis of the deposited data

Results flagged for a closer look

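In groups of 4 libraries, 1 library stood apart from the other 3 for 3 of 72 gene and group combinations, by the gap to its nearest neighbour over the range; chance gives about 1 in 20. All 3 were relatives of the 9 genes. Rnase2a read 10.4 CPM in DMSO library 1 and 14.6 to 15.2 CPM in the others. Rnase6 read 54.8 CPM in PF-9363 library 3 and 45.2 to 46.5 CPM in the others. Ccr2 read 840 CPM in DMSO library 2 and 745 to 759 CPM in the others.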

How the results depend on the processing

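With PF-9363, all 133 values of the 8 tested genes under other settings kept their direction and call. With SETBP1-D868N, Ear1, Ear2, Ear6, Siglecf and Ccr3 kept theirs under every setting run, and the count of genes called lower was 4 to 6 over the leave-one-out fits. Prg2 was called with DESeq2 (adjusted p = 9.02e-06), without robust estimation (0.00752), with the replicate block (0.00632) and without SETBP1-D868N library 1 (0.0177) or 2 (0.0132). Prg3 was called with no filter (0.000551), DESeq2 (0.0416), the block (0.0108) and without SETBP1-D868N library 1 (0.00985). Deviations from the group mean had r of -0.178 to -0.0453 and -0.0382 to 0.0111 between same-numbered libraries of the 2 groups. Between libraries of unlike number r was -0.113 to 0.217 and -0.0724 to 0.0864. With so few libraries per group, these values cannot decide whether equal numbers share an animal or batch, and the labels do not say. The replicate block gave 6640 calls in place of 7448, and 10124 in place of 10228, with 6 and 7 of the 8 genes lower. Epx, never called with SETBP1-D868N, turned sign under RLE (-0.0011), DESeq2 (-0.0011) and without LUC 2, LUC 3, SETBP1-D868N 1 or SETBP1-D868N 3 (leave-one-out values of -0.048 to 0.081). The Ear2 to Ear6 shift ran from -0.143 to 0.020 over the leave-one-out values, above 0 without SETBP1-D868N 1. Other genes not called that turned sign were, with SETBP1-D868N, Alox5 (0.0099) and Ccr2 (0.017) under library size, and Ang (-0.013 with limma-voom, and -0.16 to 0.20 leaving out 1 library). With PF-9363 they were Ltc4s (-0.11 to 0.020 leaving out 1 library) and Id2 (-0.21 under library size, adjusted p = 0.0176, -0.0017 with no filter, and -0.021 to 0.067 leaving out 1 library). The cause of these was not tested. Leaving out 1 library gave 6436 to 7086 and 10013 to 10261 calls, and 1 to 2 neighbour genes higher with SETBP1-D868N, since Ccr1l1 was lost without LUC 2, SETBP1-D868N 2 or SETBP1-D868N 3. Il3ra with PF-9363 was not called under library size (0.13, adjusted p = 0.291). Depth limits Ear10, Il5ra and Ptgdr2 in the second experiment, and for Ear10 the handling of shared reads is also not given.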
